A study of Mus musculus with 2 samples.

Results

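The genes followed here encode subunits of the GABA-A receptor, the main inhibitory neurotransmitter receptor of the cortex: Gabra2, Gabra3, Gabra4, Gabra5, Gabrb1, Gabrb2 and Gabrd. They were taken by symbol from the gene tables and from both kinds of transcript table, and they are 7 of 55450 annotated genes, with 27 of 141767 annotated transcripts. All 7 were found in every table. The tissue was left cerebral cortex, from which total RNA was taken in 2 males aged 36 days. Both were B6CASTF1/J, F1 hybrids between the strains B6 and CAST. One library was made per mouse from 300 ng of RNA, with reduction of ribosomal RNA and with added ERCC spike-ins, which are synthetic RNAs of known amount. The labels name the mice as biological replicates 1 and 2 of 1 group, without a genetic or drug treatment, and give both the same donor identifier. There was no contrast between conditions, so the results are levels, ratios within a library, transcript shares and the difference between the mice, given as mean ± SD (n = 2) and without p-values. If the shared identifier means shared tissue, the SD is technical.

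GABA-A receptors are chloride channels opened by the transmitter GABA, each built as a ring of subunits. Most cortical receptors combine alpha, beta and gamma subunits and sit at synapses, whereas receptors that hold the delta subunit, often together with alpha 4, lie outside synapses and respond to low ambient GABA. The alpha subunit sets much of the sensitivity to GABA and to drugs, GABA itself binds between a beta and an alpha subunit, and alpha 5 is known for receptors outside synapses on pyramidal neurons. The 7 genes lie on 5 chromosomes of the mm10 build. Gabra2 (ENSMUSG00000000560.9), Gabra4 (ENSMUSG00000029211.11) and Gabrb1 (ENSMUSG00000029212.11) share chromosome 5, at 70957597 to 71095849, 71569749 to 71658308 and 71658113 to 72149037. Gabra3 (ENSMUSG00000031343.13) lies on chromosome X from 72432681 to 72656848, and Gabra5 (ENSMUSG00000055078.7) on chromosome 7 from 57407672 to 57510059. Gabrb2 (ENSMUSG00000007653.12) lies on chromosome 11 from 42419757 to 42629028, and Gabrd (ENSMUSG00000029054.8) on chromosome 4 from 155384980 to 155398112.

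The 4 alpha genes differ at one codon that is known from pharmacology: a histidine in the extracellular part of alpha 2, alpha 3 and alpha 5 is needed for the binding of classical benzodiazepines, and alpha 4 has an arginine in its place. The coding bases around that codon are shown because the alpha levels are summed over these kinds below. Each line gives 39 bases of the coding strand read from mm10, with the codon in capitals. It is codon 129 of 451 in Gabra2, 154 of 492 in Gabra3, 135 of 552 in Gabra4 and 136 of 463 in Gabra5, counted from the start codon. All 4 stretches are on the minus strand.
Gabra2 (chr5:71014487-71014525): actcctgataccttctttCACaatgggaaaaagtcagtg
Gabra3 (chrX:72501150-72501188): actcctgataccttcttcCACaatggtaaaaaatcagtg
Gabra4 (chr5:71641134-71641172): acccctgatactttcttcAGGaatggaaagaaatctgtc
Gabra5 (chr7:57488873-57488911): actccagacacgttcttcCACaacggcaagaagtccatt
Gabra2 and Gabra3 were identical at 36 of the 39 bases, the most of any pair, and Gabra4 and Gabra5 at 26, the fewest.

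The libraries held total expected counts of 29915436 and 27988033 in replicates 1 and 2, and the 7 genes each drew between 926 and 6271 of them, so their levels did not rest on sparse counts. Each library has a gene table with a matching transcript table, called alignment-based here and used unless another is named, and a second, read-based transcript table. Counts of the 2 libraries differed by more than sampling noise (chi-square per degree of freedom of 12.6 over 16504 genes). Markers of excitatory neurons (Nrgn highest at a TPM of 882, Neurod6 lowest at 24.4), inhibitory neurons (Sst 180.1, Vip 25.3) and astrocytes (Slc1a2 806, Aqp4 40.6) all reached a TPM of 1, as 4 of 4, 6 of 6 and 4 of 4 genes. Of markers of neighbouring regions, 0 of 4 for cerebellum did so (Cdh15 highest at 0.26, and Barhl1 lowest, at 0 counts in both libraries where a count of 0 allows up to 3). For thalamus 3 of 4 did (Slc17a6 13.0, Lhx9 0.375), for hippocampus 3 of 5 (Cabp7 7.76, Dsp 0.04) and for striatum 5 of 5 (Ppp1r1b 127, Drd2 8.03), and cortex also expresses several of these. The summed TPM was 252.0 and 219 for the striatal list in replicates 1 and 2, 22.6 and 26.1 for the thalamic list, and 13.9 and 13.1 for the hippocampal list. In bulk tissue, fewer cells of a type and less RNA per cell cannot be told apart.

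Alpha subunit RNA made up more than any other class. TPM, a level corrected for transcript length and set to the same total in each library, was summed over all 13 genes of the alpha, beta, gamma and delta classes. The genes outside the 7 enter only these sums. The 6 alpha genes summed to a TPM of 419 and 421 in replicates 1 and 2, the 3 beta genes to 226 and 219, the 3 gamma genes to 103.5 and 103.4, and the delta gene to 32.2 and 30.7. As shares of the whole, alpha held 54.1% ± 0.535, beta 28.6% ± 0.507, gamma 13.3% ± 0.0818 and delta 4.05% ± 0.110. The order was the same in both mice and the gaps were far larger than the spread. On the log2(TPM + 1) scale alpha exceeded beta by 0.92 ± 0.04, beta exceeded gamma by 1.10 ± 0.03 and gamma exceeded delta by 1.69 ± 0.05. These are RNA sums and do not count subunits in assembled receptors. With only the annotation's basic set of transcripts, which leaves out incomplete and non-coding models, alpha over beta was 0.36 and the alpha share was 42.9%. The 4 alpha genes studied held 36.6% ± 0.303 of the alpha sum, and Gabrb1 and Gabrb2 held 56.2% ± 1.41 of the beta sum, so the rest of each class lay in the other subunit genes. The alpha figure depended on the transcripts counted: it was 30.5% ± 0.0901 with protein-coding transcripts only and 52.6% ± 0.879 with the basic set. The 4 genes summed to a TPM of 116.4 in both settings, whereas the whole alpha class summed to 382 ± 1.75 and 221 ± 5.36.

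Gabra2, Gabra3 and Gabra4 stood close together and Gabra5 stood below them. The TPM of Gabra3 was 45.1 in replicate 1 and 48.2 in replicate 2 (46.7 ± 2.23). Gabra4 stood at 47.2 and 43.5 (45.4 ± 2.57), and Gabra2 at 40.5 and 43.4 (41.9 ± 2.09). The order of Gabra3 and Gabra4 turned between the mice, so they did not differ beyond their spread. Gabra4 was above Gabra2 in both mice, by a TPM of 6.72 in replicate 1 and of 0.14 in replicate 2. On the log2(TPM + 1) scale this difference was 0.11 ± 0.15, smaller than its SD. Gabra5 was listed at 19.9 in each mouse (19.92 and 19.94), below the 3 others without overlap. On the log2(TPM + 1) scale Gabra2 exceeded Gabra5 by 1.04 ± 0.07, Gabra3 exceeded it by 1.19 ± 0.07 and Gabra4 by 1.15 ± 0.08.

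Among the 4 alpha genes, Gabra3 held 30.3% ± 1.10 of their summed TPM, Gabra4 29.5% ± 2.01, Gabra2 27.2% ± 1.04 and Gabra5 13.0% ± 0.140. The 3 genes with the histidine codon shown above together held 69.1% and 71.9% in replicates 1 and 2 (70.5% ± 2.01), and Gabra4, with arginine there, held the rest. The histidine share was 71.9% ± 1.14 in the read-based table and 69.3% ± 1.85 when only protein-coding transcripts were counted, so it moved by about its own SD.

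Gabrb2 was the most abundant of the 7 genes. Its TPM was 85.6 and 83.9 in replicates 1 and 2 (84.7 ± 1.19), and that of Gabrb1 was 39.4 and 41.2 (40.3 ± 1.26). Gabrb2 exceeded Gabrb1 by 1.05 ± 0.06 on the log2(TPM + 1) scale, a ratio of 2.08, and the values of the 2 genes did not overlap. Of the sum of the pair, Gabrb2 held 67.8% ± 0.988. Gabra2 was above Gabrb1 by a TPM of 1.04 and 2.21 in replicates 1 and 2, a mean gap within the larger SD. Ranked by TPM among the 12877 protein-coding genes that both mice had at 1 or more, Gabrb2 stood at percentile 91.2.

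With all transcripts counted, Gabrd was lower than every other of the 7 genes except Gabra5. Its TPM was 32.2 and 30.7 in replicates 1 and 2 (31.5 ± 1.07). Gabra4, the usual alpha partner of delta, exceeded Gabrd by 0.51 ± 0.03 on the log2(TPM + 1) scale, a ratio of 1.43. Gabrd exceeded Gabra5 by 0.63 ± 0.05 on the same scale. The place of Gabrd turned with the transcripts counted: with the basic set it stood at 27.8 ± 1.56, above Gabrb1 at 21.6 ± 0.396 and Gabra2 at 17.4 ± 1.05 in both mice, and with protein-coding transcripts only it was above Gabra2 as well. From highest to lowest TPM the order was Gabrb2, Gabra3, Gabra4, Gabra2, Gabrb1, Gabrd and Gabra5. The neighbours Gabra3 and Gabra4, and Gabra2 and Gabrb1, did not differ beyond their spread. That rule sets the mean gap against the larger SD of the 2 genes, not against the SD of the gap itself. Gabra4 and Gabra2 passed it, although their log2 difference (0.11 ± 0.15) was smaller than its own SD. The deposited credibility interval, whose level is not given in the sources used here, ran from a TPM of 18.2 to 20.7 for Gabra5 and from 80.7 to 87.2 for Gabrb2 in replicate 1. In replicate 1 the intervals of Gabra2 (37.4 to 41.96) and Gabrb1 (35.5 to 40.9) overlapped, and that of Gabra4 began above both, at 42.1. In replicate 2 the interval of Gabra4 (39.5 to 46.6) spanned that of Gabra2 (40.0 to 44.7), so the deposited intervals did not separate this pair in both mice. Gabra5, the lowest of the 7, was at percentile 57.1 of detected protein-coding genes, and the median of the 7 was at 79.1.

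**Figure D1:**
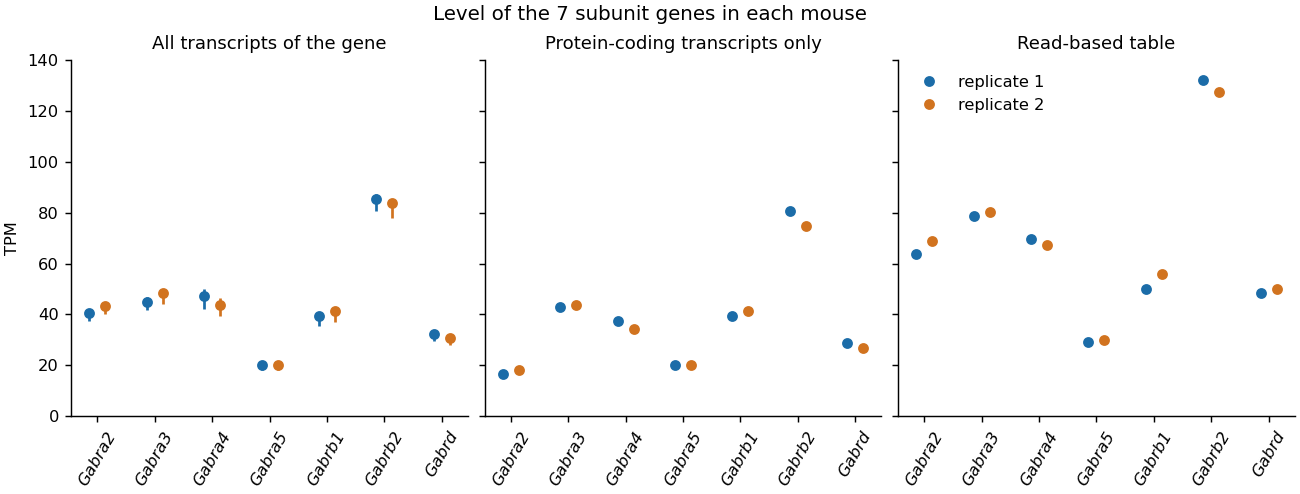
TPM (vertical axis) of each gene in each mouse (points), from all transcripts of the gene with the deposited credibility interval (lines, left), from protein-coding transcripts only (middle) and in the read-based table (right). Gabrb2 is highest in each panel, at a mean of 84.7, 77.6 and 129.8, and Gabra2 falls from 41.9 in the left panel to 17.4 in the middle one.

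The level of Gabra2 depended on which of its transcripts were counted. Only 1 of its 6 transcripts, Gabra2-203, is annotated as protein-coding, and it held 41.2% and 41.8% of the gene's TPM in replicates 1 and 2, the quantity listed in the files as isoform percentage. Gabra2-204, annotated as a target of nonsense-mediated decay, the pathway that removes RNAs with an early stop codon, held 40.0% and 36.2%. The retained-intron transcript Gabra2-205 held 9.56% and 9.07%, and the non-coding Gabra2-206 held 5.17% and 5.08%. In expected counts, Gabra2-204 drew 1201 and 1090 and Gabra2-203 drew 1886 and 1918. These counts include reads that both transcripts could have given, divided between them by estimate. The number of reads that tell the pair apart is not listed, so the counts do not show how firm the shares are. The read-based table gave Gabra2-204 42.0% and 36.5% and Gabra2-203 33.7% and 34.3%, which puts the decay target first in both mice. In the alignment-based table Gabra2-203 led by 1.13 points in replicate 1 and by more in replicate 2 (41.8% against 36.2%). The tables thus did not order the pair alike.

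Gabra2-204 differs from Gabra2-203 at both ends and inside. It runs from 70959481 to 71095809 against 70957597 to 71095849, and has 3867 nucleotides against 5852. The share of each transcript can therefore rest on reads at the ends as well. The inner difference is at the start of the fifth exon of Gabra2-203, which is 221 bases long. Gabra2-204 lacks the first 61 bases of it (71014576 to 71014636 on chromosome 5), a length that is not a multiple of 3, and its reading frame ends after 87 codons against 451 in Gabra2-203. The exon is shown 5′ to 3′ on the minus strand, with the bases that Gabra2-204 lacks in capitals. The capitals end in AG, the letters of a splice acceptor. The codon for the drug-binding histidine lies further on in the same exon.
Gabra2 exon 5 (chr5:71014416-71014636): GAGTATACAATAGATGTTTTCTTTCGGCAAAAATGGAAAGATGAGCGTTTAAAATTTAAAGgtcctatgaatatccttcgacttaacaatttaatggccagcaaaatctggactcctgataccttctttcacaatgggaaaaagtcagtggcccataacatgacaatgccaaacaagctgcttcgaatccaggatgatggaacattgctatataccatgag
The B6 strain is known for a small intronic deletion beside a splice acceptor of Gabra2. The tables do not separate the B6 and CAST alleles, so a difference between alleles was not tested.

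Counting protein-coding transcripts only changed the alpha balance. Gabra2 then stood at a TPM of 16.7 and 18.1 in replicates 1 and 2 (17.4 ± 1.05), against 43.3 ± 0.474 for Gabra3, 35.8 ± 2.42 for Gabra4 and 19.9 for Gabra5. Gabra2 was then the lowest of the 7 genes, and its difference from Gabra5 turned to -0.19 ± 0.08 on the log2(TPM + 1) scale. Gabra3 exceeded Gabra2 by 1.27 ± 0.07 on this scale, against 0.15 with all transcripts. The share of Gabra2 among the 4 alpha genes went from 27.2% to 14.9% ± 1.01, and that of Gabra3 from 30.3% to 37.2% ± 0.687. Gabra2 was also the 1 gene of 7 with under 50% of its TPM on protein-coding transcripts in both mice, which held for 9.24% of 11676 detected protein-coding genes with more than 1 transcript, a group whose median protein-coding share was 86.1%. This threshold, and the others used below for transcripts, were chosen after the values were seen.

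Gabra4 also had a decay target. Gabra4-201, its main protein-coding transcript, held 71.0% and 73.6% of the gene's TPM in replicates 1 and 2. Gabra4-202, which lacks the last 68 bases of the first exon and has a reading frame of 36 codons, held 15.4% and 13.5%. The retained-intron transcript Gabra4-204 held 5.12% and 8.22%. Decay targets held at least 10% of the TPM in both mice for 2 of the 7 genes, Gabra2 and Gabra4, and for 8.8% of the same 11676 genes. The other 5 genes have no transcript of that type in the annotation. The 11676 genes also include genes without one, which could not pass. The share among genes that have such a transcript was not counted.

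**Figure D2:**
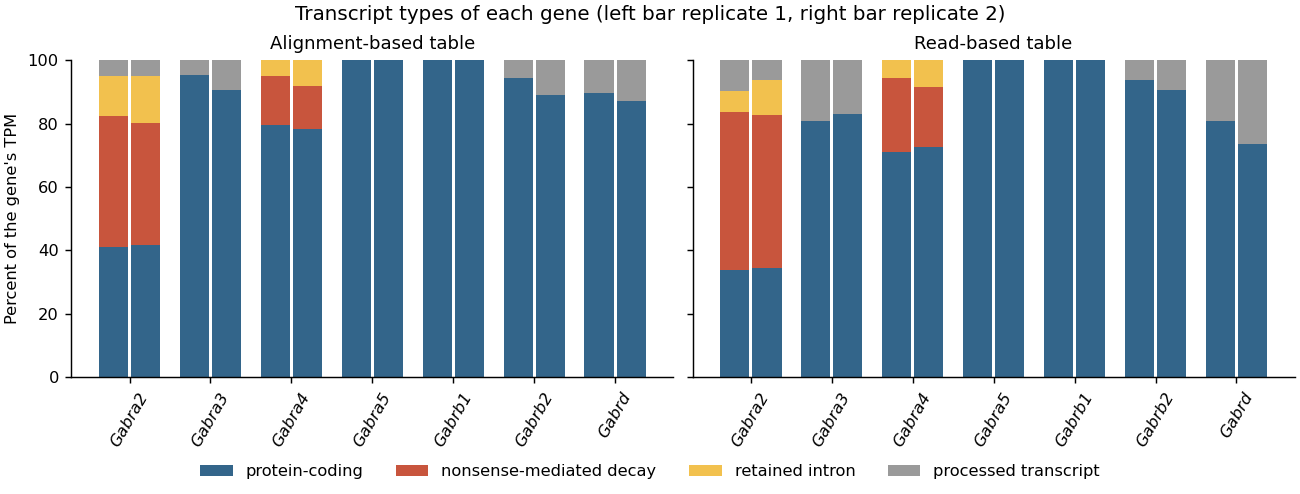
Percent of each gene's TPM (vertical axis) on 4 annotated transcript types, with the left bar of each pair for replicate 1 and the right bar for replicate 2, in the alignment-based (left) and read-based (right) tables. Protein-coding transcripts hold 41.5% of Gabra2 in the alignment-based table and 34.0% in the read-based one, and all of Gabra5 and Gabrb1 in both.

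The total level of Gabra5 was close in the mice and the shares of its transcripts were not. All 3 transcripts share the same 1389 coding bases, 463 codons, and differ outside them, in their 5′ exons and in where they end. Gabra5-201 held 53.7% of the gene's TPM in replicate 1 and 73.1% in replicate 2. Gabra5-202 held 40.9% and 19.2%, from 402 and 177 expected counts. Gabra5-203 held 5.37% and 7.70%. The largest of these differences was 21.7 points, and a difference of at least 10 points in a transcript with 5% or more in both mice was found for this 1 gene of the 7 and for 18.6% of the 7033 such genes that had a transcript of this kind and a mean count of 500 or more. The read-based table put Gabra5-202 first, at 71.9% and 58.1%, with Gabra5-201 at 23.1% and 30.5%. Both tables thus had Gabra5-201 higher and Gabra5-202 lower in replicate 2, but disagreed on which led. The leading transcript differed between the tables for 2 of the 7 genes, Gabra2 and Gabra5, and for 24.0% of the 11676 genes.

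Gabrb1 had 2 transcripts of very unequal length. Gabrb1-201, of 13737 nucleotides with a last exon of 12573, held 54.0% and 53.0% of the gene's TPM in replicates 1 and 2. Gabrb1-202, of 799 nucleotides and with its coding end marked as incomplete in the annotation, held 46.0% and 47.0%. In expected counts the balance was 95.7% ± 0.114 for Gabrb1-201 and 4.27% ± 0.114 for Gabrb1-202, which drew 249.7 and 249.0 counts. The share by TPM of the short transcript thus came from few reads on a short model, 698 bases of which lie in exons of Gabrb1-201. With the basic set of transcripts, which leaves Gabrb1-202 out, Gabrb2 exceeded Gabrb1 by 1.80 on the log2(TPM + 1) scale, a ratio of 3.48. The direction of that pair was therefore kept and its size was not.

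**Figure D3:**
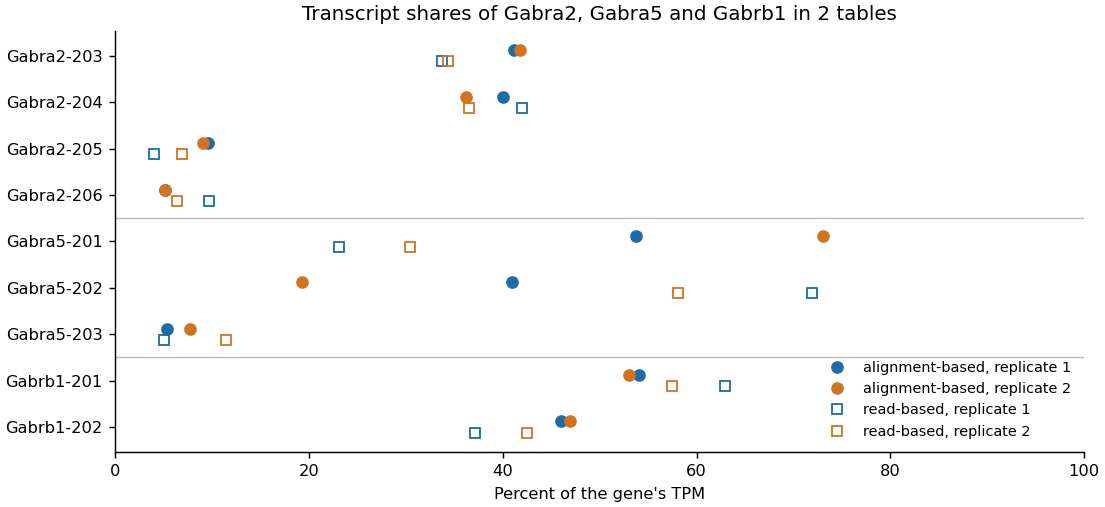
Percent of the gene's TPM (horizontal axis) on each transcript of Gabra2, Gabra5 and Gabrb1 with at least 5% in both mice (rows), from the alignment-based (filled circles) and read-based (open squares) tables. Gabra5-201 moves from 53.7% to 73.1% between the mice in the alignment-based table and stands at 23.1% and 30.5% in the read-based one.

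Gabrb2, Gabra3 and Gabrd each had 1 transcript with most of the TPM. Gabrb2-201 held 92.6% and 88.2% of its gene in replicates 1 and 2, Gabra3-201 held 93.8% and 90.5%, and Gabrd-201 held 89.7% and 87.0%, with 9.12% and 9.28% on the non-coding Gabrd-203. In the read-based table Gabra3-201 held a lower share, 69.2% and 67.7%. The other protein-coding form of Gabrb2, Gabrb2-205, carries an extra exon of 114 bases that adds 38 codons in the intracellular loop, as its ninth exon, and is known as the long form of beta 2. It fell outside the rule of 5% and was chosen for its exon: it held 1.63% and 0.71% of the gene's TPM, from 39.7 and 15.7 expected counts. The extra exon is shown in capitals on the plus strand with 20 bases of the coding exons joined to it on each side. The coordinates are those of the capitals.
Gabrb2 long-form exon (chr11:42602115-42602228): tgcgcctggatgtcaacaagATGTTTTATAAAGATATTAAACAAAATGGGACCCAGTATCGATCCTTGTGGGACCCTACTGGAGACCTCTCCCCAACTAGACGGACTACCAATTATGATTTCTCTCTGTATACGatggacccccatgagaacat
The short form therefore made up nearly all of the TPM listed for protein-coding Gabrb2 transcripts in these cortices. Gabrb2-205 is annotated with 1539 nucleotides, 1536 of them coding, against 3989 in Gabrb2-201. Its share depends on how reads that fit both are divided, and use of the extra exon itself was not measured.

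Gabra4 and Gabrb1 lie back to back on chromosome 5. Gabrb1-202 starts 41.819 kb upstream of Gabrb1-201, and its start lies 196 bases inside Gabra4 on the opposite strand, with 46 exonic bases shared. The read-based and alignment-based files do not state whether counting used strand, so reads from those bases are uncertain, as are reads on the 148 exonic bases that Gabra5 shares with the antisense gene Gm9962 (36 and 34 counts). The sequences upstream of Gabra4 and of Gabrb1-201 are shown because these neighbours start from separate sites while Gabrb1-202 starts inside Gabra4. They are from the RefSeq promoter table on GRCm38.p6, 5′ to 3′ on each gene's own strand, with every CG pair in capitals, and lie outside the GENCODE exons of both genes.
Gabra4 (chr5:71658364-71658558, minus strand): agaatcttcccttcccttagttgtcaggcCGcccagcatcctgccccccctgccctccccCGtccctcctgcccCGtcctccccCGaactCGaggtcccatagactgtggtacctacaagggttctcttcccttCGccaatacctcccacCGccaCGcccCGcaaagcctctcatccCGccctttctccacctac
Gabrb1-201 (chr5:71699682-71699931, plus strand): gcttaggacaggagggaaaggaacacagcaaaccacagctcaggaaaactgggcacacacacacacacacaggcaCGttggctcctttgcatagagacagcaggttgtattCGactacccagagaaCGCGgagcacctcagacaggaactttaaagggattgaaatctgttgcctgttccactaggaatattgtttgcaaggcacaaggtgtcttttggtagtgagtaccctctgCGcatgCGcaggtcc
The stretch of Gabra4 has 10 CG pairs in 195 bases and a GC content of 63.6%, and that of Gabrb1-201 has 6 in 250 bases and 50.8%. The stretches are unlike: that of Gabra4 stops at 71658364, short of its start at 71658308, and that of Gabrb1-201 reaches its start at 71699932. Over the full windows, described next, the 2 had 12 and 9 CG pairs and a GC content of 58.7% and 50.3%. The table held windows, from 250 bases before to 50 after a start, for 6 of the 7 genes, 10 windows in all. Their GC content ran from 39.3% in a Gabra3 window to 70.0% in Gabra2, against a median of 52.7% over 32851 windows. The Gabra3 windows, 2 in number, had 0 CG pairs, and the Gabra2 window had 25, against a median of 7. A second Gabrb1 window, whose start at 71657921 lies inside Gabra4, also had 25, with a GC content of 66.0%. Searched on both strands, TATAAA was in 3 of the 10 windows (13.6% of all windows), GGGCGG in 3 (35.7%), CCAAT in 6 (37.4%) and TGACGTCA in 0 (1.79%). The motifs do not overlap in their letters as searched, and several windows belong to the same gene.

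The levels of the 7 genes were close in the 2 mice. The log2 ratio of replicate 2 to replicate 1, from counts under TMM scaling (which centres the ratio over most genes), was 0.03 for Gabra2 (95% exact binomial interval for counting error only, -0.04 to 0.10), -0.02 for Gabra3 (-0.09 to 0.06), -0.06 for Gabra5 (-0.19 to 0.07) and -0.02 for Gabrb1 (-0.08 to 0.03). These 4 intervals include 0. The ratio was -0.13 for Gabra4 (-0.21 to -0.06), -0.15 for Gabrb2 (-0.20 to -0.09) and -0.16 for Gabrd (-0.28 to -0.04), and these intervals do not include 0. How many of all genes have such an interval was not counted. Counts over all genes differed by more than sampling noise (chi-square per degree of freedom of 12.6), so leaving out 0 does not set these genes apart. A ratio over 1 in size was found for 0 of the 7 genes and for 27 (0.231%) of the 11709 protein-coding genes whose mean count was 100 or more. The median size of the ratio was 0.06 over the 7 genes and 0.10 over those genes. The ratios of marker genes ran from -0.49 to -0.15 for excitatory neurons, -0.18 to -0.02 for astrocytes and -0.65 to -0.02 for striatum. They ran from -0.51 to 0.07 for inhibitory neurons. For thalamus (-0.11 to 1.26) and hippocampus (-0.86 to 1.31) they went both ways, with the extremes of the hippocampal list at counts of 8 or fewer. Values just below 0 were common over all genes: the fullest bin of the histogram, with 1685 genes, starts at -0.10. The share of all genes below 0 was not counted, so the markers do not set a cell type apart. Any link of the marker lists to the ratios of Gabra4, Gabrb2 and Gabrd was not tested. Spike-in totals as the scale add the same 0.40 to every log2 ratio, which puts all 7 between 0.24 and 0.43. The sign of these small ratios is thus set by the choice of scale, except for Gabra2, which is positive under both.

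**Figure D4:**
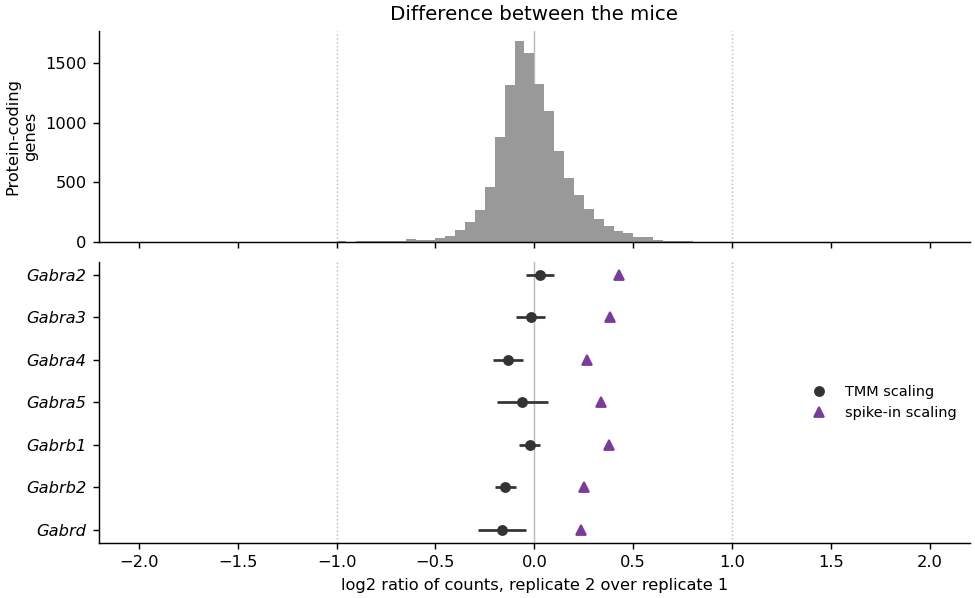
Log2 ratio of counts, replicate 2 over replicate 1 (horizontal axis), as the number of protein-coding genes per bin (top) and for each of the 7 genes (bottom, circles with 95% counting intervals under TMM scaling, triangles under spike-in scaling). The circles lie between -0.16 and 0.03 and the triangles between 0.24 and 0.43, all within the dotted lines at a ratio of 1 in size.

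The genes whose products place, move and feed these receptors were all detected. Of 22 genes for clustering, trafficking and assembly, 22 had a TPM of 1 or more in each mouse; their median was 65.8 ± 3.78. The same held for 6 of 6 genes for GABA synthesis and transport, with a median of 60.1 ± 2.76. By comparison the median of the 7 subunit genes was 41.9 ± 2.09, and 12877 of 21938 nuclear protein-coding genes reached the same threshold. The most abundant of the 28 were the kinesin motor gene Kif5a at a TPM of 442 ± 14.6, Nsf, an ATPase of membrane fusion, at 399 ± 12.7, and Gabarapl1, a relative of the receptor-associated protein GABARAP, at 299 ± 13.6. The least abundant were Plcl1, which encodes a phospholipase C-related protein, at 11.8 ± 0.177, Mdga1, which encodes a cell-surface protein that binds neuroligin 2, at 14.7 ± 2.35, and Zdhhc3, which encodes a palmitoyltransferase of gamma subunits, at 28.2 ± 2.58.

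The read-based table gave higher TPM for each of the 7 genes, as it did for the median detected gene. Its means were 129.8 for Gabrb2, 79.5 for Gabra3, 68.5 for Gabra4, 66.3 for Gabra2, 53.0 for Gabrb1, 49.3 for Gabrd and 29.6 for Gabra5. The means had the same order as in the alignment-based table, but the neighbours that differed beyond their spread were not the same. In the read-based table Gabra3 was above Gabra4 and Gabra2 above Gabrb1 beyond the spread, while Gabra4 and Gabra2, whose order turned in replicate 2, and Gabrb1 and Gabrd were not separated. The log2 ratio of the read-based to the alignment-based level ran from 0.38 for Gabrb1 to 0.76 for Gabra3, against a median of 0.58 over all detected protein-coding genes. The class balance was also close: alpha held 54.4% ± 0.697 of the subunit sum in the read-based table, beta 27.6% ± 0.682, gamma 13.7% ± 0.0780 and delta 4.29% ± 0.0634.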

How the data were processed

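Per the labels, total RNA of 2 cortices was sequenced after reduction of ribosomal RNA. The deposited files are, per the file headers, a gene and a transcript table with expected counts, TPM, the isoform percent and credibility bounds (kept with the unit signal), and a second transcript table with estimated counts and TPM; they are called alignment-based and read-based here. The deposited listing names the mm10 build with GENCODE M21 annotation for each. For the aligner, the quantifier and the interval's level: not given in the sources used here.

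Expected counts were rounded, and log2 ratios between mice used edgeR 4.0.16 in R 4.3.3 (TMM, prior count 0.5). DESeq2 1.42.0 size factors were an alternative. The step was tested on simulated data. Gene ratios are log2((TPM + 1)/(TPM + 1)). Neighbours in level were called different where both mice had 1 order and the gap passed the larger SD. Python 3.11.15 did the rest.

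The 7 genes, the partner and marker lists and the rules were chosen with earlier results of these data known. Named are all 7 genes with transcripts at 5% or more of the gene in both mice (16 of 27), the 3 most and least abundant of the 28 partner genes, and the highest and lowest marker of each list. Other subunit genes enter sums only. Spike-in rows held 0.407% and 0.322% of counts. TPM is a share of all RNA, and splitting of reads among overlapping transcripts is an estimate. No gene was named for a similar pattern, since 2 libraries of 1 group give none.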

Additional observations from a re-analysis of the deposited data

How the results depend on the processing

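The median TPM of the 7 genes was 41.9, and 92.7 with the TPM sum set over nuclear protein-coding genes alone, 65.5 in the read-based table, 35.8 with protein-coding transcripts and 27.8 with the basic set. The protein-coding levels and the basic set were added after seeing the data. With protein-coding transcripts, Gabrb2 over Gabrb1 was 0.93, Gabra4 over Gabrd 0.35, Gabra3 over Gabra2 1.27 and gamma over delta 1.74 (log2). The same setting reversed Gabra2 over Gabra5 to -0.19 and Gabra4 over Gabrb1 to -0.17. Gabra4 over Gabrb1 was instead 0.70 with the basic set, which leaves out Gabrb1-202. With the basic set, Gabrb2 over Gabrb1 was 1.80, Gabra4 over Gabrd 0.35, Gabra3 over Gabra2 1.27, Gabra2 over Gabra5 -0.19, alpha over beta 0.36 and beta over gamma 0.86. In the read-based table, Gabrb2 over Gabrb1 was 1.28, Gabra4 over Gabrd 0.47, Gabra3 over Gabra2 0.26, alpha over beta 0.98, beta over gamma 1.01, the share of Gabra5-201 26.8% and that of Gabrb1-202 39.8%. A pseudocount of 0.1 gave 0.154 for Gabra3 over Gabra2. These changes follow from which transcripts are counted or how the total is set; for the read-based table the cause was not tested. The 27 genes with a ratio over 1 between mice became 67 with spike-in totals, 114 at a minimum count of 20, 10 at 500 and 1752 without a minimum. Leaving out 1 mouse gave median levels of 40.5 and 43.4 and shares of Gabra5-201 of 53.7% and 73.1%. The 28 partner genes were all detected at a TPM of 5 as well. No paired analysis was possible because there is 1 group.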
